A study of Mus musculus with 39 samples.

Results

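The 40 genes described here are effectors of the type I interferon response, measured in striatal microglia of male mice, 8 to 10 weeks old. They were chosen by name, as products that interferon induces and that act on viral RNA, viral entry, nucleotide pools, ISG15 conjugation or ADP-ribosylation. All 40 had a row among the 55487 gene identifiers of the table, and all 40 were among the 13420 genes that passed the filter on low counts and were tested. The sort kept live CD11b+ cells with low CD45 and with P2RY12 on the surface, and cells were collected 18 hours after an intraperitoneal injection of saline or of lipopolysaccharide (LPS, a bacterial cell wall component, at 4500 endotoxin units per gram). Each group is named by a prenatal term (CON, or MIA for maternal immune activation), a further term (CON or PLX, the latter left undefined by the labels) and the injection (SAL or LPS). An arm is written as prenatal term, colon, further term, so MIA:PLX is prenatal MIA with PLX.

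The groups used held 4 libraries of CON_CON_LPS, 4 of CON_CON_SAL, 6 of MIA_CON_LPS, 4 of MIA_CON_SAL, 6 of CON_PLX_LPS, 4 of CON_PLX_SAL, 6 of MIA_PLX_LPS and 3 of MIA_PLX_SAL. The series asked whether prenatal immune stress changes how microglia react. The labels do not tie replicates to separate animals. The p-values therefore measure the spread between these samples alone, and that spread may be technical.

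Type I interferons are secreted proteins that bind the receptor pair IFNAR1 and IFNAR2 and signal through the kinases JAK1 and TYK2. Phosphorylated STAT2 and its partner IRF9 act in the complex ISGF3, which binds the interferon-stimulated response element (ISRE) in the promoters of many genes. LPS reaches this pathway through TLR4 and the adaptor TRIF, which activate IRF3 and the transcription of interferon beta. In microglia, the resident macrophages of the brain, interferon signalling sets many of the antiviral and reactive states that these cells can take.

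The promoters of the members were read from RefSeq (build GRCm38.p6), and the stretches that hold ISRE cores are printed here. An entry was found for 30 of the 40 members. The core searched was GAAA, any 2 bases, GAAA, on both strands and with overlaps allowed, in the 300 bases from 250 before to 50 after each gene start. It was present in 13 of the 30 members (43.3%) and in 1079 of 27025 genes with an entry (3.99%). A promoter with 2 or more cores was found for 7 of the 30 members (23.3%) and for 72 genes in all (0.266%). The interferon gamma activated site, TTC, any 3 bases, GAA, was present in 9 of the 30 members (30.0%) and in 9.55% of genes. A match is a run of letters, not a measured binding site.

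Shown are 170 bases, from 200 to 31 bases before the gene start and in the direction of the gene, for 6 members that span the range of responses. Capitals mark the ISRE cores. Isg15, Rsad2 and Bst2 were called higher in all 4 arms, Ifit3 in 3 arms, and Ifit3b and Parp11 in none. Their positions are chr4:156200849-156201018 (minus strand) for Isg15, chr19:34583329-34583498 (plus strand) for Ifit3, chr19:34607757-34607926 (plus strand) for Ifit3b, chr12:26456483-26456652 (minus strand) for Rsad2, chr8:71537503-71537672 (minus strand) for Bst2 and chr6:127446640-127446809 (plus strand) for Parp11. All 6 stretches lie upstream of the gene start and hold 0 annotated exon bases.
Isg15: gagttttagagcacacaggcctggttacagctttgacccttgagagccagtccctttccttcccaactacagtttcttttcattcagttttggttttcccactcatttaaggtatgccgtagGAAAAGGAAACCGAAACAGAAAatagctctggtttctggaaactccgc
Ifit3: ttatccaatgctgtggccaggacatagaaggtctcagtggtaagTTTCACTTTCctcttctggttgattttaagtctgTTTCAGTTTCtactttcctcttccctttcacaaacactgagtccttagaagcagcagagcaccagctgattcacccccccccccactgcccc
Ifit3b: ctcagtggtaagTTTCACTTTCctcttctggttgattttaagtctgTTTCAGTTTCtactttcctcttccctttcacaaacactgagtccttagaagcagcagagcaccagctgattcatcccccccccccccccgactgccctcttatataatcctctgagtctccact
Rsad2: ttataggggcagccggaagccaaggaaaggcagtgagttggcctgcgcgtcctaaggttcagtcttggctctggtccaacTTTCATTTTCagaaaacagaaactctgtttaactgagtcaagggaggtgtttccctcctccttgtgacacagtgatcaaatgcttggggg
Bst2: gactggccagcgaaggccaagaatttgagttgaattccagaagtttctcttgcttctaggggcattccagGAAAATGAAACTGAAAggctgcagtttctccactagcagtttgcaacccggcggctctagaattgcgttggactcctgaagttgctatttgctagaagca
Parp11: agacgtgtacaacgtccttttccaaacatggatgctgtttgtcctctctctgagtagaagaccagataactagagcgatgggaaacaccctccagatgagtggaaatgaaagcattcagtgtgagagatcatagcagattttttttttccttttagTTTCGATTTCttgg

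Isg15 holds 3 overlapping cores, which start 78, 72 and 66 bases before the gene start. Bst2 holds 2 overlapping cores at 130 and 124 bases before it. The Ifit3 and Ifit3b promoters share an identical run of 169 bases, which carries both of their cores. The core of Parp11 starts 44 bases before the gene start, and Parp11 was the member whose LPS change was negative in every arm. Another promoter entry of Parp11, chr6:127453377-127453676, holds 0 cores, and which start is used in these cells was not tested. Cores were thus present both in members that were called and in members that were not.

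The 37 libraries used held 1510006 to 5746240 counts each. The titles of 2 further libraries, CON_CON_LPS replicate 3 and MIA_PLX_SAL replicate 1, say exclude, and neither enters a comparison. MIA_CON_LPS replicate 6, which is used, stands apart: it differed from the excluded MIA_PLX_SAL replicate 1 by a chi-square per degree of freedom of 1.53 over 11605 genes, the lowest of 741 pairs, against 2.42 for the next pair. P2ry12, the receptor of the gate, stood at 1780.5 CPM (counts scaled to a common library depth) in that library, at 154 to 444 CPM in the other 21 LPS libraries and at 2069.6 to 2879.8 CPM in the 15 saline libraries. Whether the pair shares material or a label is crossed was not tested. The median change and the mean score of MIA:CON are given with and without this library. So are the medians of the comparisons between arms that use it. Other values of MIA_CON_LPS include it unless stated, among them counts over 2-fold, medians by saline level and changes of single members. Without it, all 40 changes of single members in MIA:CON kept their sign and their side of the threshold. The summed level of 8 microglial markers was 12021 to 14843 CPM in saline libraries and 3423 to 10929 CPM after LPS, and no marker was at 0 in any group. The summed level of 6 monocyte markers was 2.63 to 17.2 CPM in saline libraries and 10.7 to 633 CPM after LPS, and that of 7 neutrophil markers was 0 to 96.3 CPM and 3.12 to 137 CPM. The 96.3 CPM was CON_PLX_SAL replicate 2 alone, and the other saline libraries held at most 7.70 CPM of neutrophil markers. In CON_CON_SAL the monocyte markers Ly6c2 and S100a6 and the neutrophil markers Ly6g, Cxcr2, Mmp8 and Retnlg were at 0 in every library. Markers of border macrophages (6 genes) summed to 29.9 to 98.5 CPM after saline and 7.70 to 219 CPM after LPS, and those of lymphocytes (7 genes) to at most 1.99 CPM. Astrocyte markers (5 genes) summed to 105 to 707 CPM after saline and 69.6 to 232 CPM after LPS. The 707 CPM was MIA_CON_SAL replicate 4, the highest library of its group for 22 members. Markers of oligodendrocytes, neurons, endothelial and mural cells, and plasmacytoid dendritic cells summed to at most 79.5, 48.1, 47.4 and 21.4 CPM. In such bulk samples, fewer cells of a type and less RNA per cell cannot be told apart, and the part of other cell types in the member changes was not tested.

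LPS raised most of the 40 genes in each of the 4 arms, and lowered none that passed the test. In CON:CON, 35 of 40 members were higher after LPS by edgeR's quasi-likelihood test with Benjamini-Hochberg adjustment over all genes (adjusted p under 0.05), where 13.7% of all genes tested were called higher and 9.84% lower. In MIA:CON, 38 of 40 members were higher (14.5% of all genes higher, 10.9% lower). In CON:PLX, 38 were higher (17.5% and 14.0%), and in MIA:PLX 32 were higher (11.8% and 10.4%). The 4 LPS comparisons share no libraries. Without MIA_PLX_SAL replicate 2, which leaves 2 saline libraries in that arm, 20 members were called higher in MIA:PLX, and with only the CON:CON libraries in the fit 21 were called higher there (of 31 that then passed the filter).

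The median log2 fold change of the members was 1.95 in CON:CON, 2.11 in MIA:CON (2.23 without MIA_CON_LPS replicate 6), 2.31 in CON:PLX and 2.01 in MIA:PLX. Over all genes tested the medians were 0.06, 0.03, 0.03 and 0.04. More than 2-fold higher and called were 32, 33, 34 and 29 members in the same order of arms. The share of all genes past that fold limit is not given here, and the shares above have no fold limit. Of the 40 members, 11 reached the filter's level only through LPS libraries of some arm, which favours a higher LPS level among them (Ifit1, Ifit3b, Ifi27l2a, Ifi44, Isg15, Isg20, Oas2, Oas3, Oasl1, Rsad2 and Cmpk2). Among the other 29, which reached it in saline libraries alone, 26, 28, 28 and 25 were called higher, with medians of 1.44, 1.40, 1.5 and 1.42.

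A score, the mean log2 CPM over the 40 genes in a library, shows the same change library by library. It was 2.98, 2.98, 3.14 and 3.10 in the CON_CON_SAL libraries and 4.51, 5.46, 5.60 and 3.70 in the CON_CON_LPS libraries (replicates 1, 2, 4 and 5). The lowest LPS library of CON:CON, replicate 5, lay 0.56 above the highest saline library. Group means were 3.05 ± 0.08 and 4.82 ± 0.89 for saline and LPS in CON:CON (SD, n = 4 each), 3.26 ± 0.23 (n = 4) and 5.19 ± 0.40 (n = 6) in MIA:CON (5.30 ± 0.34, n = 5, without MIA_CON_LPS replicate 6), 3.22 ± 0.12 (n = 4) and 5.26 ± 0.46 (n = 6) in CON:PLX, and 3.25 ± 0.15 (n = 3) and 4.98 ± 0.37 (n = 6) in MIA:PLX. In every arm the lowest LPS library was above the highest saline library, and the LPS libraries of CON:CON were the most spread.

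**Figure D1:**
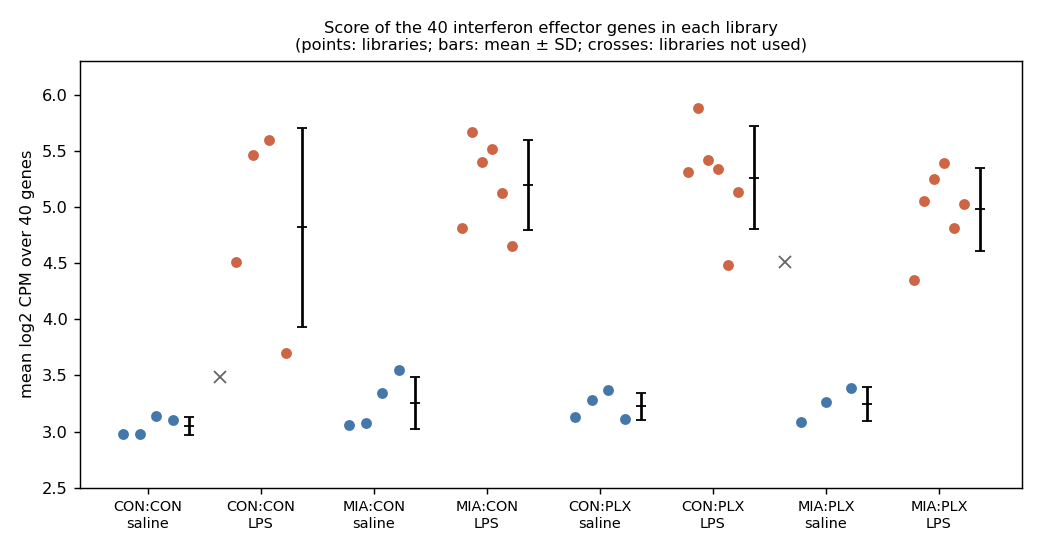
Each point is the mean log2 CPM of the 40 genes (vertical axis) in 1 library, by group (horizontal axis), with saline in blue and LPS in orange. Bars give the group mean ± SD, and crosses give the 2 libraries marked exclude. Saline groups sit between 2.98 and 3.54 and LPS groups between 3.70 and 5.88.

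Of the 40 members, 30 were higher in all 4 arms, 7 in 3 arms (Ifi27l2a, Ifi44, Ifit3, Isg20, Mx2, Oas3 and Tor3a), Epsti1 in 2 arms, and Ifit3b and Parp11 in none. When each library of an arm was left out in turn, 18 of those 30 stayed called in every fit of every arm, among them Ifitm3, Isg15, Usp18, Oasl2, Rtp4, Trim25, Lgals3bp and Parp14. The other 12 lost a call in at least 1 such fit (Ifit1, Ifit2, Oas2, Mx1, Rsad2, Bst2, Herc6, Dtx3l, Trim30a, Samhd1, Phf11b and Phf11d).

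**Figure D2:**
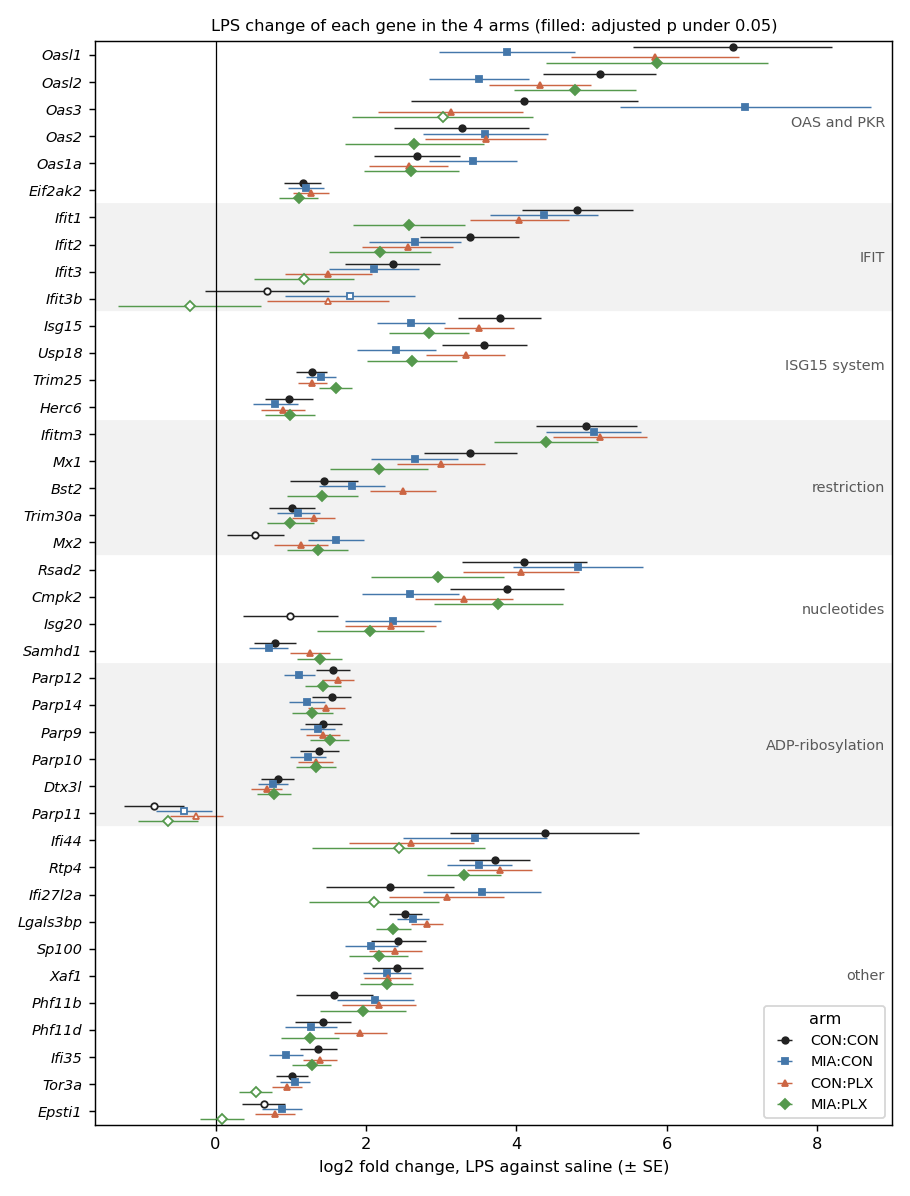
The log2 fold change of each gene after LPS against saline (horizontal axis, bars ± SE) is plotted by gene and role (vertical axis) for the 4 arms, with filled symbols for adjusted p under 0.05. The lowest change is -0.82 for Parp11, and 30 genes are filled in all 4 arms. The highest point, Oas3 in MIA:CON, has 0 saline counts, so its place depends on the prior count and stands for at least 18.9-fold.

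The sensors and synthetases of double-stranded RNA rose in most arms, by amounts that differed widely between genes. Oas1a, Oas2 and Oas3 make the oligoadenylates that activate RNase L, Oasl1 and Oasl2 are OAS-like proteins, and Eif2ak2 encodes PKR, a kinase that halts translation on binding double-stranded RNA. All 6 were higher in CON:CON, MIA:CON and CON:PLX, and 5 in MIA:PLX, where Oas3 missed the threshold at 3.02 ± 1.20 (SE; adjusted p 0.0689). Oasl2 was at 3.74, 2.96, 5.62 and 3.79 CPM in the 4 saline libraries of CON:CON and at 28.9, 194, 298 and 36.8 CPM in the 4 LPS libraries. Every LPS library was above every saline library, and replicates 2 and 4 were far above replicates 1 and 5. The log2 fold change of Oasl2 was 5.11 ± 0.75 (SE; adjusted p 9.13e-06). In the other arms it was 3.5 in MIA:CON, 4.32 in CON:PLX and 4.78 in MIA:PLX. The call of Oas2 in MIA:PLX was lost in 5 of the 9 fits that left out a library. Eif2ak2, which was well expressed after saline, rose by 1.10 to 1.27 on the log2 scale across arms.

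Oasl1 and Oas3 were close to the detection limit after saline. Oasl1, known to repress translation of the Irf7 message, had 194 counts over the 4 LPS libraries and 1 count over the 4 saline libraries of CON:CON, a depth-scaled ratio of 170 (95% interval 30.1 to 6740, counting error only). In CON:PLX it had 332 and 3 counts, a ratio of 67.3 (22.8 to 328), and in MIA:PLX 128 and 1, a ratio of 75.6 (13.3 to 3010). Oas3 had 28 counts against 1 in CON:CON, a ratio of 24.5 (4.05 to 1000), and 83 against 0 in MIA:CON, at least 18.9-fold higher (against a floor of 3 counts over the group). The call of Oas3 in CON:CON (adjusted p 0.0461) was lost in 6 of the 8 fits that left out a library.

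The IFIT genes encode proteins that bind the ends of foreign RNA and block its translation. Ifit1 and Ifit2 rose in all 4 arms, Ifit3 in 3, and Ifit3b in none. Ifit2 stood at 5.61, 3.62, 7.19 and 7.32 CPM after saline and 39.4, 61.4, 142 and 5.71 CPM after LPS in CON:CON. LPS replicates 1, 2 and 4 were above every saline library, while replicate 5 lay within the saline range. Its log2 fold change was 3.38 ± 0.66 (SE; adjusted p 0.000335), and 2.65, 2.55 and 2.18 in MIA:CON, in CON:PLX and in MIA:PLX. The call of Ifit3 in CON:PLX (adjusted p 0.0447) was lost in 7 of the 10 fits that left out a library. Ifit1 rose by 4.81 on the log2 scale in CON:CON and by 2.57 in MIA:PLX.

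Ifit3b, a near copy of Ifit3, did not pass the test in any arm. It was at 1.87, 1.98, 1.25 and 0.505 CPM after saline and 1.07, 2.11, 5.12 and 0.634 CPM after LPS in CON:CON, and the groups overlap. Its log2 fold change was 0.69 ± 0.82 (SE; adjusted p 0.588), and it turned to -0.10 without CON_CON_LPS replicate 4. Ifit3 itself was at 4.21, 3.29, 7.19 and 4.55 CPM and 7.23, 36.8, 52.2 and 1.90 CPM, a log2 fold change of 2.36 ± 0.63 (SE; adjusted p 0.00583). The longest transcripts of the pair are 97.8% identical over 1700 bases, so the split of reads between Ifit3 and Ifit3b is uncertain in these estimated counts. The same holds for Oas1a and its neighbour Oas1g (97.6% over 1861 bases), for Mx1 and Mx2 (94.8% over 920 bases) and for Phf11b and Phf11a (97.0% over 864 bases).

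All 4 genes of the ISG15 system rose in all 4 arms. Isg15 encodes a ubiquitin-like protein that is joined to other proteins, Herc6 its ligase in the mouse, Usp18 the protease that removes it and that also dampens receptor signalling, and Trim25 a ubiquitin ligase that acts on the RNA sensor RIG-I. Trim25 was at 37.2, 37.2, 49.7 and 38.6 CPM after saline and 89.2, 89.1, 124 and 92.9 CPM after LPS in CON:CON. The groups do not overlap, and the spread within each is small beside the gap. Its log2 fold change was 1.28 ± 0.21 (SE; adjusted p 2.62e-05), with 1.40, 1.29 and 1.60 in MIA:CON, in CON:PLX and in MIA:PLX. Isg15 itself was low after saline, at 0.467, 0.329, 0.937 and 0.758 CPM, and reached 4.28, 15.2, 11.8 and 4.44 CPM after LPS in CON:CON. All 4 LPS libraries were above all 4 saline libraries, and the log2 fold change was 3.78 ± 0.55 (SE; adjusted p 5.00e-06). Usp18 rose by 2.40 to 3.57 across arms and Herc6 by 0.79 to 0.99. The call of Herc6 in MIA:CON, with an adjusted p of 0.0462, was lost in 9 of the 10 fits that left out a library.

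Among the factors that restrict entry, assembly and release, Ifitm3 changed most. Its product sits in endosomal membranes and blocks fusion of virus. Ifitm3 was at 1.40, 6.59, 1.87 and 2.78 CPM after saline and 28.4, 225, 69.9 and 52.0 CPM after LPS in CON:CON. Every LPS library was above every saline library, and replicate 2 was the highest. This gave a log2 fold change of 4.93 ± 0.67 (SE; adjusted p 2.83e-06), with 5.03, 5.11 and 4.40 in MIA:CON, in CON:PLX and in MIA:PLX. Bst2, the tetherin that holds budding virus at the cell surface, rose by 1.42 to 2.49 across arms, and Trim30a, a tripartite motif protein known to restrain Toll-like receptor signalling, by 0.996 to 1.30. Mx1, a dynamin-like GTPase that blocks viral nucleocapsids, rose by 2.18 to 3.39.

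Mx2, the other GTPase of that pair, passed in 3 arms and missed in CON:CON. It was at 13.6, 15.8, 10.6 and 10.4 CPM after saline and 19.01, 24.6, 23.0 and 5.39 CPM after LPS there. Replicates 1, 2 and 4 lay above the saline libraries and replicate 5 below them. This gave a log2 fold change of 0.53 ± 0.38 (SE; adjusted p 0.329), against 1.60, 1.14 and 1.36 in MIA:CON, in CON:PLX and in MIA:PLX.

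The enzymes of nucleotides and nucleic acids fall into low and high genes after saline. Rsad2 encodes viperin, which makes a chain-terminating nucleotide, and its neighbour Cmpk2 a mitochondrial nucleotide kinase. Rsad2 rose by 4.11, 4.82, 4.06 and 2.95 on the log2 scale in CON:CON, MIA:CON, CON:PLX and, last, MIA:PLX, and Cmpk2 by 2.59 to 3.87. Samhd1, which breaks down deoxynucleotides, was at 133, 148, 136 and 129 CPM after saline and 92.9, 219, 406 and 224 CPM after LPS in CON:CON. Replicate 1 was below every saline library and the other 3 above them. Its log2 fold change was 0.79 ± 0.28 (SE; adjusted p 0.0366), a call lost in 5 of the 8 fits that left out a library. It was 0.71 in MIA:CON (adjusted p 0.0421, lost in 7 of 10 such fits), 1.26 in CON:PLX and 1.38 in MIA:PLX.

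Isg20, an exonuclease of RNA, passed in 3 arms and missed in CON:CON. It was at 2.80, 0.988, 1.87 and 3.54 CPM after saline and 4.02, 9.84, 4.35 and 0.317 CPM after LPS there. Replicate 5 was below all saline libraries and the other 3 above them. This gave a log2 fold change of 0.995 ± 0.63 (SE; adjusted p 0.262), and 2.36, 2.33 and 2.06 in MIA:CON, in CON:PLX and in MIA:PLX, where the call was lost in 5 of the 9 fits that left out a library.

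Of the 6 genes of ADP-ribosylation, 5 rose in all 4 arms by similar amounts, and Parp11 did not. Parp9 and Dtx3l encode partners in a complex that modifies histones and ubiquitin, and Parp10, Parp12 and Parp14 are mono-ADP-ribosyltransferases. Parp12 was at 28.5, 32.3, 38.1 and 34.6 CPM after saline and 68.0, 101, 157 and 68.2 CPM after LPS in CON:CON. The groups do not overlap, and replicate 4 was the highest. This gave a log2 fold change of 1.56 ± 0.22 (SE; adjusted p 3.49e-06), and 1.11, 1.62 and 1.43 in MIA:CON, in CON:PLX and in MIA:PLX. Parp9 rose by 1.36 to 1.52 across arms, Parp14 by 1.22 to 1.54, Parp10 by 1.23 to 1.38 and Dtx3l by 0.68 to 0.83. Exons of Parp9 and Dtx3l overlap on opposite strands, and the library kit kept no strand, so reads from the shared stretch cannot be told apart. In all, exons of 11 members overlap another annotated gene.

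Parp11, a mono-ADP-ribosyltransferase, was the only member with a negative change in all 4 arms. It was at 16.8, 14.2, 14.7 and 9.34 CPM after saline and 9.91, 3.28, 14.1 and 3.81 CPM after LPS in CON:CON. The groups overlap, with replicates 2 and 5 below every saline library. The log2 fold change was -0.82 ± 0.40 (SE; adjusted p 0.142), and -0.42, -0.25 and -0.63 in MIA:CON, in CON:PLX and in MIA:PLX. It was called lower in CON:CON (-1.28) only in the fit without CON_CON_LPS replicate 4, and in no arm otherwise.

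The other 11 members have diverse or less defined roles. Lgals3bp, a secreted glycoprotein that binds galectins, had the smallest p of all members in each arm. It was at 104, 78.1, 91.6 and 97.7 CPM after saline and 423, 732, 456 and 528 CPM after LPS in CON:CON. The lowest LPS library was far above the highest saline library. The log2 fold change was 2.52 ± 0.22 (SE; adjusted p 1.99e-10), and 2.62, 2.81 and 2.37 in MIA:CON, in CON:PLX and in MIA:PLX. Rtp4, which binds viral RNA and restricts flaviviruses, rose by 3.31 to 3.78 across arms, Xaf1, a partner of the apoptosis inhibitor XIAP, by 2.28 to 2.42, and the nuclear body protein Sp100 by 2.07 to 2.43. Ifi35 rose by 0.94 to 1.39, Phf11b by 1.58 to 2.17 and Phf11d by 1.26 to 1.93.

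Tor3a, a torsin ATPase of the endoplasmic reticulum, rose by 0.95 to 1.06 in 3 arms and stood at 0.53 ± 0.22 (SE; adjusted p 0.0794) in MIA:PLX. Ifi27l2a rose by 2.32, 3.55 and 3.07 in CON:CON, MIA:CON and CON:PLX and stood at 2.11 ± 0.87 (SE; adjusted p 0.0776) in MIA:PLX. Its call in CON:CON was lost in 6 of the 8 fits that left out a library. Ifi44 rose in the same 3 arms. It had 34 counts after LPS against 1 after saline in CON:CON, a depth-scaled ratio of 29.8 (95% interval 4.99 to 1210), and 29 against 3 in MIA:PLX, a ratio of 5.71 (1.77 to 29.3), where it was not called. Epsti1 was at 21.3, 11.5, 18.7 and 16.2 CPM after saline and 23.8, 34.0, 26.1 and 21.9 CPM after LPS in CON:CON. The groups do not overlap, but the log2 fold change of 0.64 ± 0.29 (SE; adjusted p 0.101) did not pass the threshold. Epsti1 rose by 0.89 in MIA:CON and 0.79 in CON:PLX, and stood at 0.09 in MIA:PLX.

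**Figure D3:**
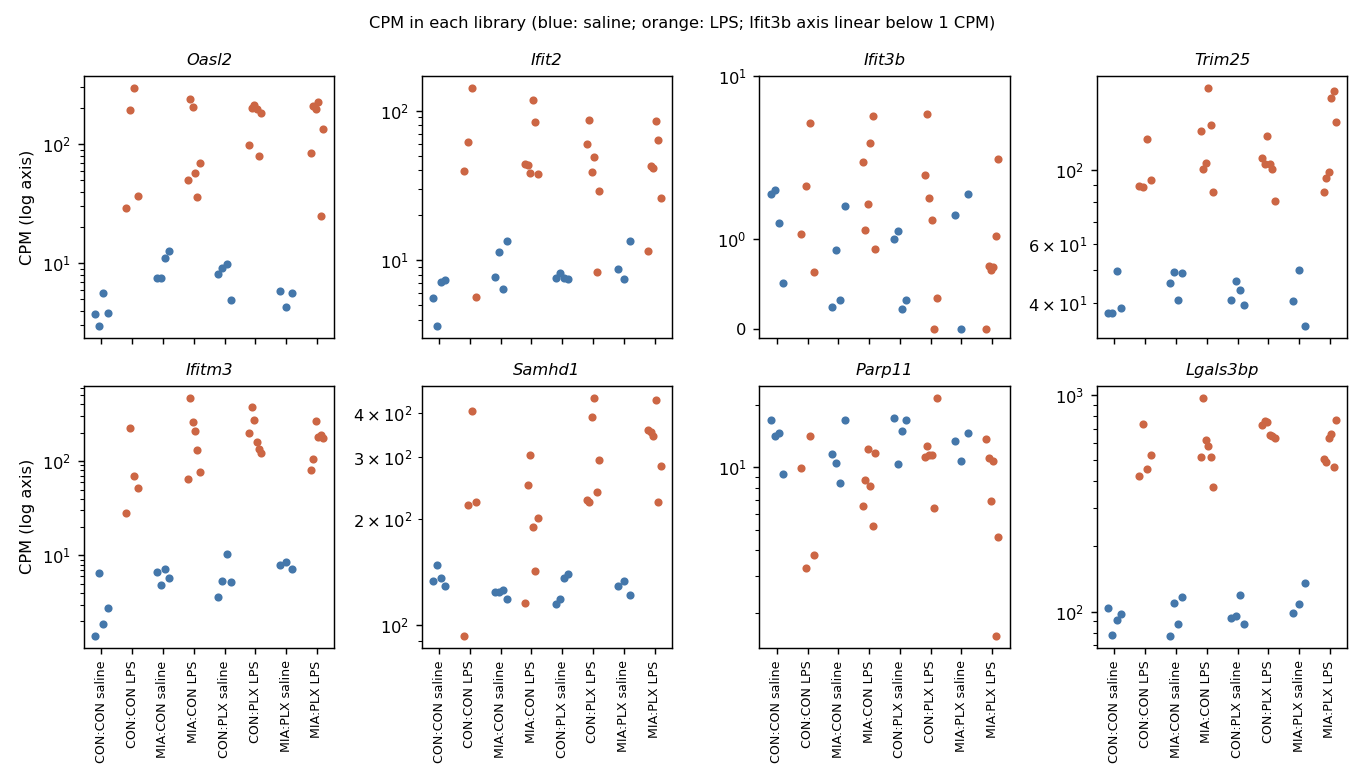
The CPM of 8 genes (vertical axes, log scale, linear below 1 CPM for Ifit3b) is plotted for each library of the 8 groups (horizontal axes), saline in blue and LPS in orange. Lgals3bp, Trim25, Oasl2 and Ifitm3 separate saline from LPS in every arm, while Ifit3b and Parp11 overlap in every arm.

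After saline the members differed widely in level. Per kilobase of the longest annotated transcript, the mean of the 15 saline libraries was highest for Lgals3bp, at 42.9 CPM per kb (33.2 to 58.2 over libraries), followed by Samhd1 at 32.7 (29.1 to 37.6), Trim30a at 24.9 (21.6 to 28.6) and Parp14 at 19.5 (14.7 to 23.7). The ranges of Lgals3bp and Samhd1 overlap, as do those of Trim30a and Parp14, while every Samhd1 value is above every Trim30a value. The lowest were Oasl1 at 0.167 CPM per kb (0 to 0.888), Ifi44 at 0.0900 (0 to 0.330) and Oas3 at 0.0636 (0 to 0.379), whose ranges overlap. The median log2 fold change of the 20 members with the highest saline level per kb was 1.40 in CON:CON, 1.24 in MIA:CON, 1.41 in CON:PLX and 1.37 in MIA:PLX. For the 20 members with the lowest it was 3.48, 3.04, 3.10 and 2.59. These 20 hold all 11 members that reached the filter only through LPS libraries, so the filter itself favours a large change among them, and no relation of level to change can be read from these medians. For the other 9 of the 20 the medians were 3.38, 2.65, 2.57 and 2.18. The saline values enter both the level and the change, and the median SE was 0.28 for the upper 20 and 0.70 for the lower 20 in CON:CON. Ifitm3, in the upper 20 at 8.36 CPM per kb, had a mean change of 4.87 over the arms, and Lgals3bp, with the highest level, one of 2.58. Ifit3b and Parp11 were in the lower 20 and not called.

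**Figure D4:**
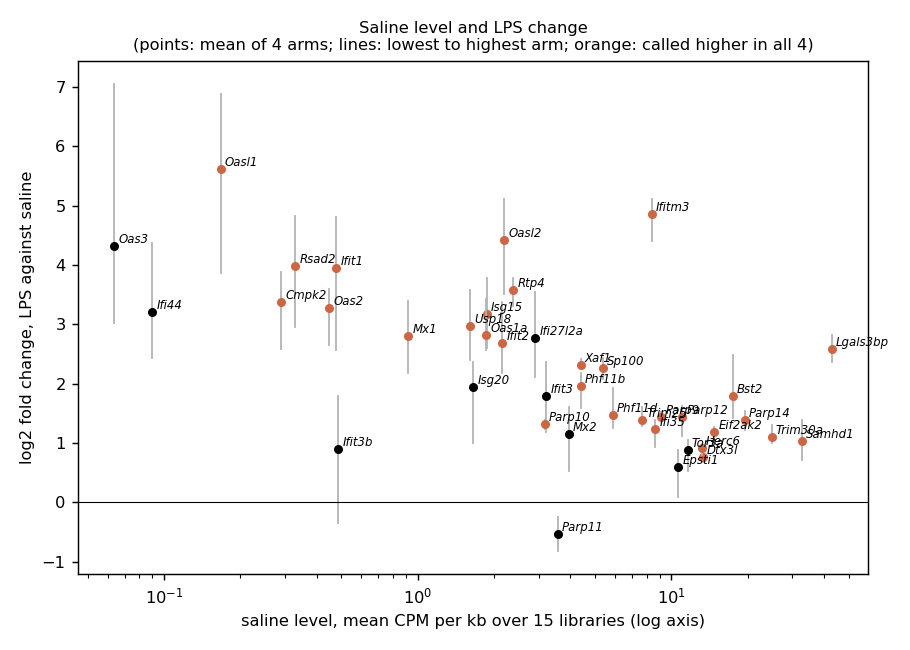
Each gene's saline level in CPM per kb (horizontal, log axis) is plotted against its log2 fold change after LPS (vertical). Points are means of the 4 arms, lines run from the lowest to the highest arm, and orange marks the 30 genes called higher in all 4 arms. Oas3 and Ifi44 lie lowest in level, Parp11 lies below 0, and the upper end and mean of Oas3 include MIA:CON, where saline has 0 counts.

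LPS libraries of the same group differed from each other, and in each group 1 library was the lowest for many members. Every LPS library was above every saline library for 21 of 40 members in CON:CON (11.7% of all genes tested), 32 in MIA:CON (8.94%; also 32 without MIA_CON_LPS replicate 6, beside 12.3%), 31 in CON:PLX (14.0%) and 29 in MIA:PLX (12.1%). No member lay wholly below. In CON_CON_LPS, replicate 4 was the highest library for 21 members and replicate 2 for 17, while replicate 5 was the lowest for 26 and the highest for 0. Replicate 5 did not exceed the saline libraries for 15 members, among them Ifit2, Ifit3, Mx1, Rsad2 and Cmpk2. It stood above them for Oasl2, Ifitm3, Trim25, Parp12 and Lgals3bp. Its monocyte markers summed to 147 CPM and its neutrophil markers to 63.7 CPM, the highest of the 4 libraries. Replicates 1, 2 and 4 held 18.5, 128 and 44.3 CPM of monocyte markers and 5.4, 23.9 and 10.2 CPM of neutrophil markers. The part of these cells in the members' order was not tested. In MIA_PLX_LPS, replicate 1 was the lowest library for 25 members and did not exceed the saline libraries for 10, and its monocyte markers summed to 109 CPM, the lowest of that group (others 127 to 302). In CON_PLX_LPS, replicate 5 was the lowest for 24 members, and its monocyte markers summed to 633 CPM, the highest of that group. Replicate 3 of that group held 500 CPM of monocyte markers and was the lowest for 1 member. In MIA_CON_LPS, replicate 6 was the lowest for 19, with a monocyte sum of 37.4 CPM (others 10.7 to 160 CPM). The lowest library thus had the highest monocyte sum in CON_CON_LPS and CON_PLX_LPS and not in the other groups.

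The genes upstream of the members were taken from a list of 21, of which 17 were tested. The ligands were at the detection limit: Ifna2, Ifna4 and Ifng had 0 counts, which allows up to 3 counts in a library (0.554 to 2.31 CPM by its depth), and Ifnb1 had 13 counts in all, in 6 of 37 libraries. Of these, 12 counts were in 5 of the 22 LPS libraries. The receptors Ifnar1 and Ifnar2 and the kinases Jak1 and Tyk2 were not called in any arm. Ifnar1 was at 85.3, 83.0, 92.8 and 87.9 CPM after saline and 118, 105, 84.2 and 143 CPM after LPS in CON:CON, overlapping ranges with a log2 fold change of 0.37 ± 0.22 (SE; adjusted p 0.234).

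Stat2 and Irf9, which act in ISGF3, rose in every arm. Stat2 was at 21.97, 28.7, 35.9 and 30.6 CPM after saline and 162, 154, 333 and 74.8 CPM after LPS in CON:CON, with every LPS library above every saline library. Its log2 fold change was 2.63 ± 0.31 (SE; adjusted p 1.52e-07). Irf9 rose by 1.20 in CON:CON. Irf7, which carries interferon transcription into its later phase and is itself interferon-induced, rose by 3.05, 3.09, 3.49 and 4.05 in CON:CON, MIA:CON, CON:PLX and, last, MIA:PLX, and Irf1 by 1.14 to 1.94, while Irf3 and Irf5 were not called. The feedback inhibitor Socs3 rose by 1.98 to 2.35. Socs1, another inhibitor, fell by 2.58 in CON:CON (adjusted p 0.0357), where it was at 2.57, 5.60, 0.937 and 2.78 CPM after saline and 0.536, 0, 1.28 and 0 CPM after LPS, and was not called in the other arms. Of the 17, 5, 6, 5 and 5 were higher and 1, 0, 0 and 0 lower in CON:CON, MIA:CON, CON:PLX and, last, MIA:PLX, beside the shares of all genes given above. The call beyond the 5 genes named as higher was Ifngr1, an interferon gamma receptor chain, in MIA:CON.

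No member differed by prenatal term past the threshold, after saline or after LPS, with or without PLX. By edgeR's quasi-likelihood test, 0 of 40 members were called for MIA against CON after saline without PLX (0% of all genes), after LPS without PLX (0%), after saline with PLX (0%) and after LPS with PLX (0.0149%, 2 genes). At an unadjusted p under 0.05 there were 1, 3, 0 and 1 members in that order, and DESeq2 called 0 in each. Of all 13420 genes, 159, 1252, 164 and 1193 were under that unadjusted p by edgeR. After LPS without PLX, the score was 4.65 to 5.67 (median 5.26, n = 6) in MIA_CON_LPS against 4.51, 5.46, 5.60 and 3.70 in the 4 libraries of CON_CON_LPS. The mean was 0.38 higher with MIA (0.49 without MIA_CON_LPS replicate 6), with an SD between the single libraries of CON_CON_LPS of 0.89. This difference of means was not tested. The median log2 difference was 0.15 for the members (0.25 without MIA_CON_LPS replicate 6) and -0.009 over all genes. The members' median ran from -0.08 without CON_CON_LPS replicate 5 to 0.41 without replicate 4.

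The member nearest to the threshold there was Ifi27l2a. It was at 2.41, 12.7, 1.79 and 4.44 CPM in CON_CON_LPS and at 0.592 to 59.6 (median 9.92, n = 6) CPM in MIA_CON_LPS. The ranges overlap, and the log2 difference was 1.64 ± 0.65 (SE; adjusted p 0.439 by edgeR), or 1.82 ± 0.66 (adjusted p 0.337) without MIA_CON_LPS replicate 6. Ifitm3 (1.10 ± 0.49) and Epsti1 (0.53 ± 0.26) were the other members under an unadjusted p of 0.05, both higher with MIA. Of the 40 members, 27 were higher and 13 lower, and the share of all genes that were higher is not given here. Without MIA_CON_LPS replicate 6, 5 members were under that p. The number over all genes is not given here for fits without that library. For 18 of 40 members (16 without that library) the interval of the difference (95%, from the SE) lay within 2-fold either way, so for the other members a change of 2-fold cannot be set aside at this depth and spread.

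With PLX there was again no call after LPS, and most members were lower with MIA. The mean score was 0.28 lower in MIA_PLX_LPS than in CON_PLX_LPS, with SDs between single libraries of 0.37 and 0.46 (n = 6 each). This difference of means was not tested. The median log2 difference was -0.28 for the members and -0.02 over all genes, and 33 of 40 members were lower. The share of all genes that were lower is not given here. The members were measured in the same libraries, so 33 of 40 is no count of independent results. The members' median ran from -0.39 to -0.16 with each library left out, whereas their median without PLX took either sign. Ifit1 was at 12.02 to 55.9 (median 16.7, n = 6) CPM in CON_PLX_LPS and at 3.32 to 20.1 (median 11.8, n = 6) CPM in MIA_PLX_LPS. The log2 difference was -1.09 ± 0.47 (SE; adjusted p 0.502), and the ranges overlap. The intervals of 20 members lay within 2-fold. After saline the member with the smallest p was Isg15 without PLX, at 0.467, 0.329, 0.937 and 0.758 CPM in CON_CON_SAL and 2.17, 1.76, 3.55 and 1.27 CPM in MIA_CON_SAL. All 4 MIA libraries were above all 4 CON libraries, and the log2 difference was 1.76 ± 0.63 (adjusted p 1). Isg15 was thus close to the floor of 3 counts in a library (0.554 to 2.31 CPM by its depth). The share of all genes that separate these groups in this way is not given here. The median differences of the members after saline were 0.19 without PLX and 0.05 with it (-0.02 without MIA_PLX_SAL replicate 3).

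PLX against none gave no call among the members either. In prenatal CON 0 of 40 were called after saline (0% of all genes) and 0 after LPS (0.00745%, 1 gene), and in prenatal MIA 0 after saline (0%) and 0 after LPS (0%). At an unadjusted p under 0.05 edgeR gave 0, 3, 0 and 4 members, beside 125, 944, 159 and 1189 of all 13420 genes. DESeq2 called 0 members in each. These comparisons share their groups with those by prenatal term. In prenatal CON after LPS the median difference was 0.20 (-0.0073 without CON_CON_LPS replicate 5), and Ifitm3 had the smallest p, at 28.4, 225, 69.9 and 52.0 CPM without and 123 to 378 (median 181, n = 6) CPM with PLX. The ranges overlap, and the log2 difference was 1.17 ± 0.49 (adjusted p 0.646). In prenatal MIA after LPS the median was -0.20 (-0.33 without MIA_CON_LPS replicate 6), and Samhd1 was nearest to the threshold. Samhd1 was at 116 to 305 (median 195, n = 6) CPM without and 224 to 437 (median 350.4, n = 6) CPM with PLX, overlapping ranges with a log2 difference of 0.74 ± 0.23 (adjusted p 0.327; 0.312 without MIA_CON_LPS replicate 6, where 7 members were under an unadjusted p of 0.05). After saline the medians were 0.13 in prenatal CON and 0.01 in prenatal MIA (-0.08 without MIA_CON_SAL replicate 1). The intervals of 19 and 23 members lay within 2-fold after LPS in prenatal CON and MIA (18 in MIA without that library).

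**Figure D5:**
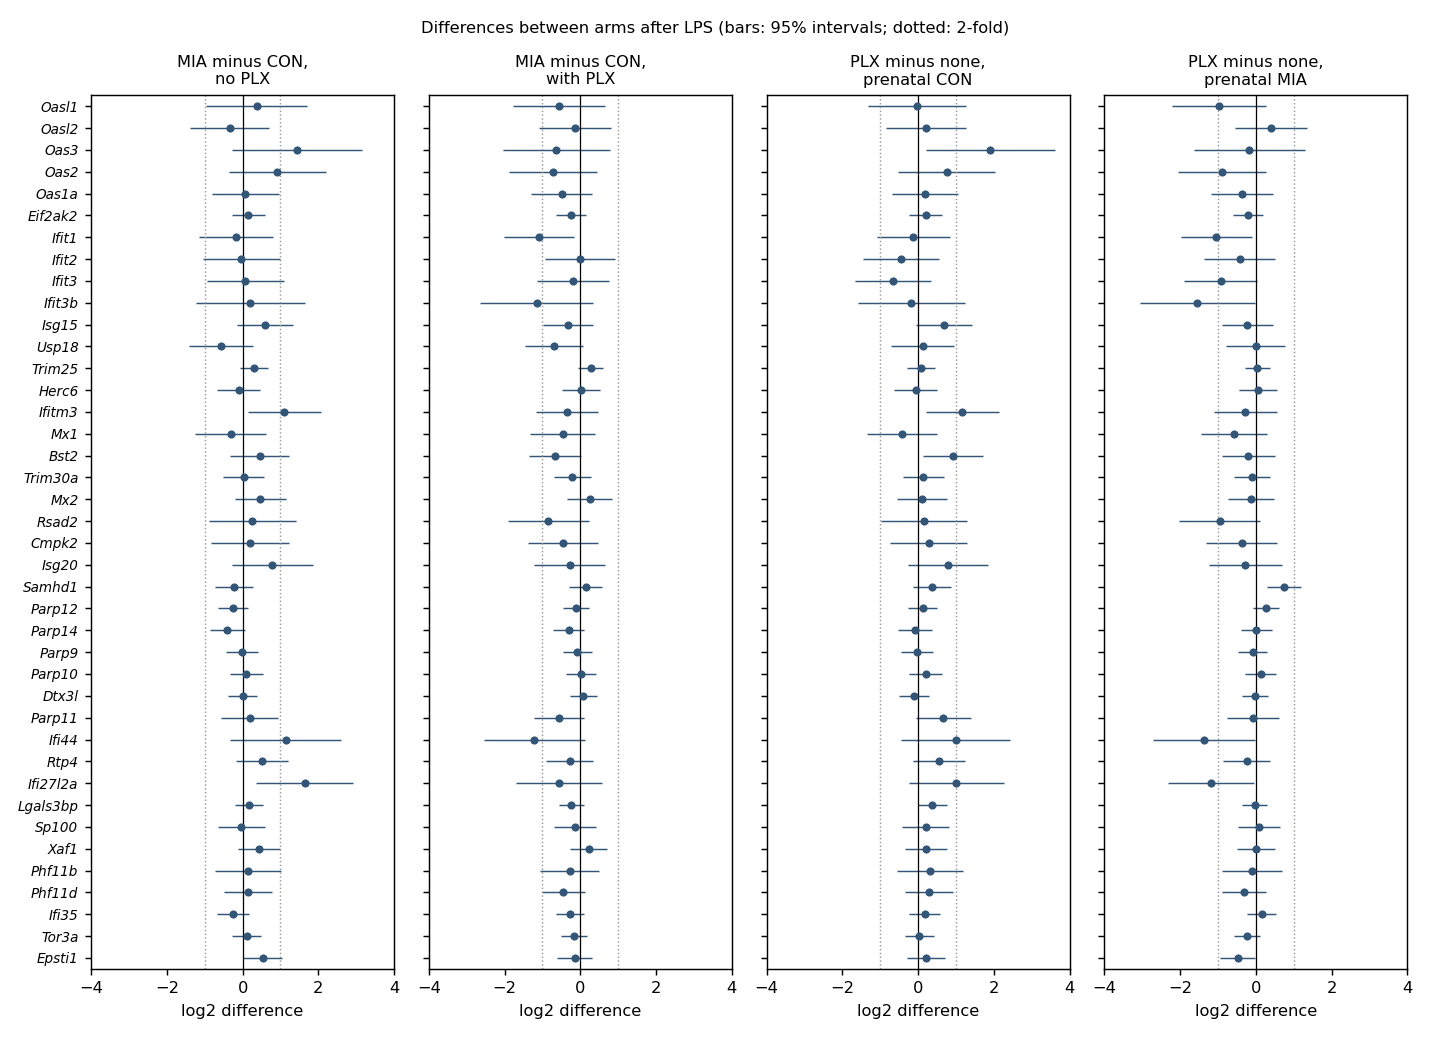
The log2 difference of each gene after LPS (horizontal axes, bars 95% intervals from the SE) is plotted by gene (vertical axis) for MIA minus CON without and with PLX and for PLX minus none in prenatal CON and MIA. Dotted lines mark 2-fold. None of the 40 genes was called in any panel.

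The difference between LPS changes was tested itself as an interaction. For prenatal term by LPS without and with PLX, and for PLX by LPS in prenatal CON and MIA, 0 of 40 members were called by edgeR and 0 by DESeq2 in each (0% of all genes in all 4). At an unadjusted p under 0.05 edgeR gave 1, 0, 0 and 1 members, beside 415, 393, 356 and 389 of all 13420 genes. The 1 member without PLX was Mx2, whose LPS change was 1.07 ± 0.52 larger in MIA:CON than in CON:CON on the log2 scale (adjusted p 1). The 1 member of PLX by LPS in prenatal MIA was Epsti1, at -0.80 ± 0.39 (adjusted p 1). The medians of the members were -0.08, -0.25, -0.02 and -0.18. Those without PLX and in prenatal CON took either sign when CON_CON_LPS libraries were left out, with 0.21 and 0.23 without replicate 4. Without MIA_CON_LPS replicate 6 the medians of the pair that uses it were -0.02 for prenatal term by LPS without PLX and -0.24 for PLX by LPS in prenatal MIA, again with 0 called and with 1 and 2 members at an unadjusted p under 0.05. Mx2 was then at 1.19 ± 0.52 and Epsti1 at -0.87 ± 0.39. Within 2-fold were then 15 and 13 members. The intervals of 9, 13, 14 and 10 members lay within 2-fold in the order given, so most of these differences between LPS changes are known only to within more than 2-fold.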

How the data were processed

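RNA of sorted striatal microglia was amplified as cDNA with a linear kit (Ovation RNA-Seq System v2) that keeps no strand, per the labels' protocols. The authors deposited 1 table of estimated counts per gene for 39 libraries. The tools STAR, RSEM and DESeq2 are named per the submitters' processing notes, without roles or versions. Build and annotation: not given in the sources used here. Of the nonzero deposited values 14.71% were not whole, and all were rounded. Identifiers were named by GENCODE M21 (55141 of 55487 matched, 54349 with the version).

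The 2 libraries marked exclude were left out. Totals were 1510006 to 5746240 counts, with a median of 3095170. Genes were filtered with filterByExpr (minimum count 10, minimum total 15), scaled by TMM and fitted on all 37 libraries, with 1 mean per group, by edgeR 4.0.16 (robust quasi-likelihood F-test, two-sided, R 4.3.3, limma 3.58.1). P-values were adjusted by Benjamini-Hochberg over 13420 genes, at a threshold of 0.05 with no fold limit. Log2 CPM used a prior count of 2, the SE is the log2 fold change over the root of F, and intervals of differences are 95% normal intervals from the SE. CPM is scaled to the TMM-adjusted total. Intervals of count ratios are exact at 95% and, with the floor of 3 counts, cover counting error only. The fit was tested on simulated data.

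Alternatives were RLE size factors, DESeq2 1.42.0, no filter, both marked libraries included, only the compared groups, a replicate block and each library left out in turn. Similar transcripts were found with blastn (at least 90% identity over at least 500 bases). The members, the upstream and marker lists and the tests were chosen with earlier results of these data known. Values in every CON:CON library are given for the member of each role group with the smallest p there and an average log2 CPM of at least 4, for members not called there, and for near-identical pairs. Isg15 and, between arms, the members with the smallest unadjusted p were added after their values were seen. A gene of the upstream list is not reported here.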

Additional observations from a re-analysis of the deposited data

Results flagged for a closer look

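Trim25, the ubiquitin ligase of the RIG-I pathway, had a library far from the others in both CON:CON groups. In CON_CON_LPS, replicate 4 stood at 6.96 log2 CPM and the other 3 libraries at 6.49 to 6.55, so the gap to the nearest was 0.872 of the group's range. In CON_CON_SAL, replicate 3 stood at 5.65 log2 CPM and the other 3 at 5.24 to 5.29, a gap of 0.866 of the range. Both were the highest library of their group. Of 91 groups of values examined in this way, 2 stood out, and chance alone gives about 1 in 20.

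The 2 libraries marked exclude carry a member signal that no comparison uses. MIA_PLX_SAL replicate 1, labelled saline, had a score of 4.51, above the 3.09 to 3.39 of the other saline libraries of its arm, and 37 of the 40 members lay above all of those libraries. CON_CON_LPS replicate 3, labelled LPS, had a score of 3.48, above the 2.98 to 3.14 of the saline libraries of its arm and below the 3.70 of the lowest LPS library used. In it 16 members lay above all saline libraries and 23 below all LPS libraries of the arm, and its microglial markers summed to 13498 CPM. For neither library is the share of all genes given here, so these member counts have no background beside them.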

How the results depend on the processing

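Of 160 LPS changes of single members followed through 2425 alternatives, 2280 kept their direction and side of the threshold, 129 were no longer called, 11 became called and 5 changed sign. The sign changes were Ifit3b in CON:CON (-0.10 without CON_CON_LPS replicate 4, range -0.10 to 0.97 over the libraries left out), Ifit3b in MIA:PLX (0.0056 with the replicate block and 0.22 without MIA_PLX_SAL replicate 4, range -0.88 to 0.22) and Epsti1 in MIA:PLX (-0.069 without MIA_PLX_LPS replicate 3 and -0.046 without MIA_PLX_SAL replicate 2, range -0.069 to 0.22). None of these was called. The members called higher in CON:CON, MIA:CON, CON:PLX and, last, MIA:PLX were 35, 38, 38 and 34 by DESeq2, 35, 37, 37 and 32 with RLE size factors, 29, 36, 37 and 24 without the filter, 29, 36, 37 and 26 with both marked libraries, and 21, 35, 37 and 34 with only the compared groups, where fewer genes passed the filter (31, 37, 39 and 38 members). With each library left out in turn they ran from 29 to 35, 36 to 38, 36 to 38 and 20 to 32, the lowest without MIA_PLX_SAL replicate 2. The count called lower in CON:CON ran from 0 to 1, Parp11 without CON_CON_LPS replicate 4. The median log2 fold change in CON:CON was 1.42 with only the compared groups. With both marked libraries included, the medians were 1.45 for LPS in MIA:PLX, -0.70 for prenatal term by LPS with PLX and -0.62 for PLX by LPS in prenatal MIA. The cause was not tested.

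Deviations of same-numbered libraries correlated with a median r of 0.02 (107 pairs, -0.25 to 0.66). For different numbers it was -0.004 (487 pairs, -0.48 to 0.49). Among LPS libraries, replicate 1 was the highest of its group for Rsad2 in CON:CON, MIA:CON and CON:PLX (5.34, 5.67 and 6.11 log2 CPM). In MIA:PLX it was the lowest (3.06). Whether some same-numbered libraries share a batch was not tested, and the median over all pairs cannot decide it. A fit with the replicate block called 35, 38, 38 and 36 members higher and 0 by prenatal term or PLX. For members with 3 or fewer counts after saline, depth limits the size of the change to the wide intervals given.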
